A study of Mus musculus with 96 samples.

Results

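Messenger RNA of the insulin-like growth factor (IGF) system was described in the mouse striatum, in RNA bound to astrocyte ribosomes and in RNA of the whole tissue. The 10 genes were chosen by name: the ligands Igf1 and Igf2, the receptors Igf1r and Igf2r, and the binding proteins Igfbp2 to Igfbp7. All 10 were found among the 24060 gene entries. IGF1 and IGF2 are secreted peptides that signal growth and survival through IGF1R, a receptor tyrosine kinase. IGF2R, also known as the mannose 6-phosphate receptor, takes IGF2 to lysosomes, and the binding proteins hold secreted IGFs and control how much of them reaches a receptor. In the adult brain, microglia are a known source of IGF1 after injury, leptomeninges and choroid plexus are known sources of IGF2, and astrocytes are known to make IGFBP2.

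The adult mice came from 6 experiments of 4 treated and 4 control mice each, and each mouse gave 1 immunoprecipitated (IP) and 1 input library. All mice carried an adeno-associated virus (AAV) with RiboTag, the HA-tagged ribosomal protein Rpl22-HA, in striatal astrocytes for 3 weeks. The IP library holds RNA pulled down with the HA tag, and the input library holds RNA of the cleared lysate of the same tissue. In the first experiment, C57BL/6 mice received quinolinic acid (QA, 30 nM on the label), an excitotoxin that kills striatal projection neurons, by microinjection in the striatum, with RNA taken 2 weeks later, and their controls received vehicle there. In the second, C57BL/6 mice received lipopolysaccharide (LPS), a bacterial cell wall component, at 5 mg/kg intraperitoneally 24 h before, and their controls received intraperitoneal vehicle. In the third, Kir4.1flox/flox mice received AAV5-GfaABC1D-Cre, and their Kir4.1flox/flox controls received AAV5-GfaABC1D-TdTomato. GfaABC1D is a promoter active in astrocytes, and Kir4.1 is the potassium channel encoded by Kcnj10. In the fourth, mice labelled as IP3R2 knockouts (Itpr2-/-) were set against wild-type littermates (Itpr2+/+). IP3R2 is a calcium release channel, and the knockout is of the whole animal, not of astrocytes alone. In the fifth, C57BL/6 mice with the Gs-coupled designer receptor rM3Ds in striatal astrocytes received its ligand clozapine N-oxide (CNO) at 1 mg/kg 2 h before extraction, and their controls, with the same receptor, received vehicle. In the sixth, C57BL/6 mice with the Gq-coupled designer receptor hM3Dq received CNO at 1 mg/kg, at a time the labels do not give, and their controls, with the same receptor, received vehicle.

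Values are FPKM, reads scaled to transcript length and library depth, as deposited, and rest on 42482794 to 82256208 reads per IP library and 14738821 to 51033648 per input library. Astrocyte markers checked the label of the IP: 8 of 8 were higher in IP than in input of the 24 control mice, with a median log2 difference of 2.80. Microglial markers were lower in IP for 8 of 8 genes (median -4.93), endothelial markers for 7 of 7 (median -3.21) and medium spiny neuron markers for 8 of 8 (median -1.15), while striatal interneuron markers were higher for 6 of 7 (median 1.91). Summed ependymal markers were also higher in IP of every control group. Means ran from 50.3 FPKM in IP, against 21.5 FPKM in input (Itpr2 wild-type mice), to 106, against 25 FPKM (hM3Dq vehicle mice). Summed oligodendrocyte markers went both ways, from 755 FPKM in IP, against 1277 FPKM in input (Itpr2 wild-type mice), to 1500, against 1387 FPKM (QA vehicle mice). Kcnj10 was at 27.9 to 36.1 FPKM in IP of Cre mice, against 142 to 164 FPKM in TdTomato mice. Itpr2 was at 10.4 to 14.5 FPKM in IP libraries labelled Itpr2 knockout, against 9.92 to 13.7 FPKM in wild-type littermates. The gene value covers the whole transcript, so the libraries of that experiment are called by their label. QA mice were 1 female and 3 males by Xist and Y-linked genes, against 4 females in their vehicle group.

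Of the 10 genes, Igfbp2 and Igfbp3 had the steepest rise in astrocyte ribosome-bound RNA after QA, and Igfbp5 had the highest level of the 10 in control IP, so their upstream sequences are shown. The windows hold the 250 bases before the transcription start in RefSeq (GRCm38.p6), read along the gene. They lie at chr1:72824230-72824479 (plus strand) for Igfbp2, chr11:7213924-7214173 (minus strand) for Igfbp3 and chr1:72874866-72875115 (minus strand) for Igfbp5. Capitals mark matches to the motifs searched.
Igfbp2: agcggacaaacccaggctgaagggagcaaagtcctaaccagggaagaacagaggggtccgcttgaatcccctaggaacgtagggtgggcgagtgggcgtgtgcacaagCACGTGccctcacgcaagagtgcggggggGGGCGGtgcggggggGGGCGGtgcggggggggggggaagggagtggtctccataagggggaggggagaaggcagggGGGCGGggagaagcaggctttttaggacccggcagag
Igfbp3: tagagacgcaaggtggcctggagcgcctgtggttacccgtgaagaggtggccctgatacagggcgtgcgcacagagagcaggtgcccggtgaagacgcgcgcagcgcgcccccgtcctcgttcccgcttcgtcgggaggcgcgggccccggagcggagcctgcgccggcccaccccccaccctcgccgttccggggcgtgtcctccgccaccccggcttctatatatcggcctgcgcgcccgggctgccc
Igfbp5: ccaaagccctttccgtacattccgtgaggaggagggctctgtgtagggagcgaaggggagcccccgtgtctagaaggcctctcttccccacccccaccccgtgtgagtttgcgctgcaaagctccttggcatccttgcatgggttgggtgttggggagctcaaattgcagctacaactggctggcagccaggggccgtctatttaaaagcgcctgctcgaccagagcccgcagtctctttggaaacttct
The motifs, searched on either strand, were the GC box GGGCGG, the TATA box TATAAA, the STAT site TTCNNNGAA, the AP-1 site TGANTCA, the cyclic AMP response element TGACGTCA and the E-box CACGTG. The Igfbp2 window held 3 GC boxes, with first bases at -113, -98 and -37 from the start site, and 1 E-box at -142. RefSeq lists a second Igfbp2 start, whose window (chr1:72825137-72825386, plus strand, not printed) held 1 AP-1 site at -39 and none of the other motifs. Neither the Igfbp3 nor the Igfbp5 window held any of these letters. Among 27025 RefSeq promoter windows of this length, 32.9% held a GC box, 13% a TATA box, 7.18% a STAT site, 6.87% an AP-1 site, 1.62% a cyclic AMP response element and 6.05% an E-box. Igfbp2 (chromosome 1, 72824480 to 72852474) and Igfbp5 (72858065 to 72874865) are neighbours on opposite strands, with 5590 bases between their annotated ends.

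Binding proteins dominated the IGF system in control IP. In IP of the 24 control mice, Igfbp5, which binds IGFs in the extracellular matrix, averaged 102 ± 25.3 FPKM, Igfbp2 averaged 36.9 ± 34.4 and Igfbp4 averaged 25.9 ± 5.03 (SD, n = 24). The receptors followed, with Igf2r at 13.9 ± 1.22 and Igf1r at 10.7 ± 0.687 FPKM. Igfbp3, Igfbp7 and Igfbp6 averaged 3.56, 3.36 and 2.59 FPKM in control IP, and the ligands were lowest, with Igf2 at 1.5 ± 1.97 and Igf1 at 0.589 ± 0.143 FPKM. The wide SD of Igf2 and Igfbp2 came from the TdTomato mice. Without these 4 mice, the 20 other control IP libraries held Igf2 at 0.369 to 1.23 FPKM (median 0.606) and Igfbp2 at 11.4 to 38.3 FPKM (median 18.3).

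Astrocyte ribosome-bound RNA and whole tissue differed in which binding proteins they held. Of the 10 genes, 6 were higher and 3 lower in IP than in input of the 24 control mice, by limma with Benjamini-Hochberg adjustment over all genes and the mouse as a block. That count is set against 88.7% of 15566 genes called in this comparison, and the members' median log2 difference of 0.32 against -0.037 over all genes. Differences are on the scale of log2(FPKM + 0.1) after scaling between libraries, so they understate changes of genes with low values. Igfbp5 averaged 102 FPKM in IP and 15.6 in input, a log2 difference of 2.89 (SE 0.08, adjusted p = 5.4e-23 by limma), and was higher in IP in 24 of 24 mice. Igfbp2 averaged 36.9 FPKM in IP and 10.2 in input (log2 difference 1.73, SE 0.11, adjusted p = 3.1e-14 by limma), also higher in 24 of 24 mice. Igf1 averaged 0.589 FPKM in IP and 0.361 in input (log2 difference 0.75, SE 0.06, adjusted p = 1.3e-12 by limma), higher in 24 of 24 mice, although its values rest on 41 to 177 reads per control input library. Its medians were 0.569 FPKM in control IP and 0.359 in control input. It thus met the filter of 0.5 FPKM in 4 libraries mainly through IP, where it is high. Within single experiments it was tested in 4 of 6.

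The receptors were modestly higher in IP. Igf1r stood 0.61 higher on the log2 scale (SE 0.03) and was higher in 24 of 24 mice, and Igf2r stood 0.42 higher (SE 0.03) and was higher in 21 of 24 mice. Igfbp7, a binding protein with weak affinity for IGFs that is known from blood vessels, averaged 3.36 FPKM in IP and 16.1 in input and was lower in IP in 24 of 24 mice (log2 difference -2.02, SE 0.06, adjusted p = 3.3e-22 by limma). Igfbp6, which prefers IGF2 over IGF1, averaged 2.59 FPKM in IP and 7.53 in input and was lower in 24 of 24 mice (log2 difference -1.34, SE 0.08). Igf2 was lower in IP by 1.19 on the log2 scale over all control mice (adjusted p = 9.9e-07 by limma). The control mice of the Kir4.1 experiment went the other way, with a log2 difference of 0.67 (adjusted p = 0.0011), and without them the difference was -1.55 (adjusted p = 6.4e-13 by limma), an alternative chosen after their levels were seen. Igfbp4 had a difference of 0.21 (adjusted p = 0.001 by limma), but was called in 2 of 6 experiments and stood at -0.01 with the deposited scaling. Igfbp3 did not pass over all control mice (log2 difference -0.01, adjusted p = 0.96 by limma). It was called within 3 of 6 experiments, and its difference ran from -0.97 to 0.67 between experiments.

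**Figure D1:**
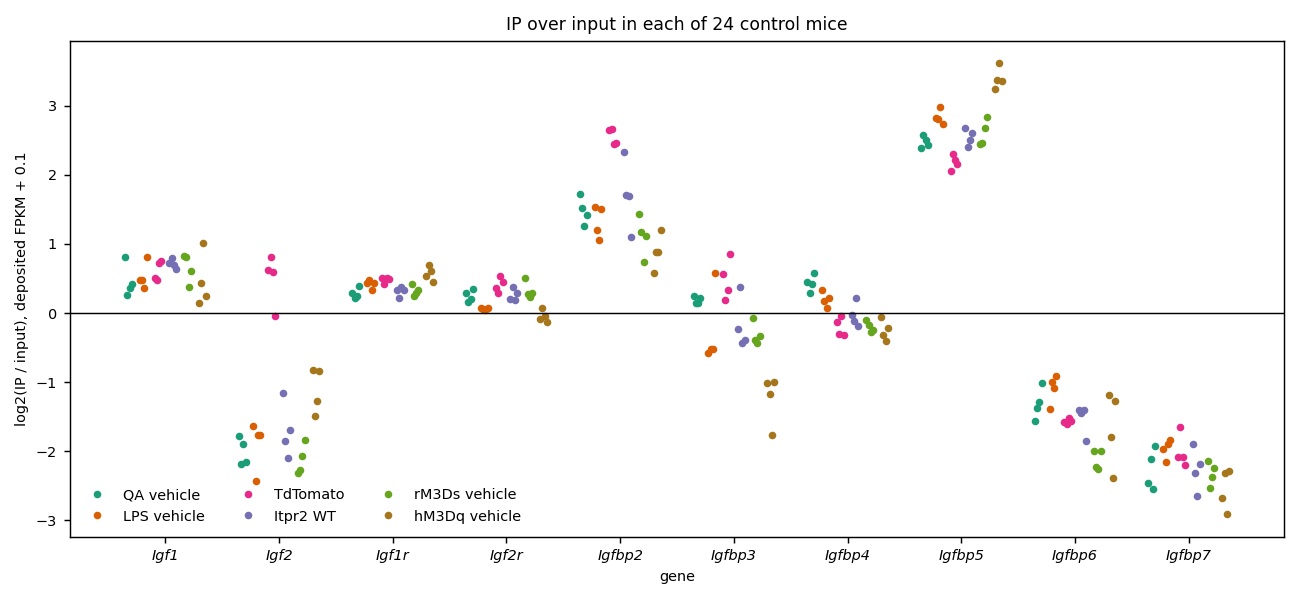
Each point is 1 of 24 control mice. The y axis is the log2 ratio of IP over input from deposited FPKM + 0.1, without further scaling, and colours mark the control group of each experiment. Igfbp5 and Igfbp2 lie above 0 and Igfbp6 and Igfbp7 below 0 in 24 of 24 mice, and the TdTomato mice lie apart from the others for Igf2.

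After QA, the IGF binding protein set in IP changed its make-up. Igfbp2 and Igfbp3 rose 16.1-fold and 16.2-fold in IP, Igfbp5 and Igfbp7 rose, and Igfbp4 and Igfbp6 fell. In IP, 5 of the 10 genes were higher and 4 lower after QA by limma with Benjamini-Hochberg adjustment, in an experiment where 74.0% of 13824 genes were called. The members' median log2 change was 0.17, against -0.023 for all genes, and since most genes were called, the sizes tell more than the count.

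Igfbp2 was at 544, 557, 421 and 436 FPKM in IP of the QA mice, against 36.4, 27.8, 27.9 and 26.4 FPKM in vehicle mice. All QA mice were far above all vehicle mice, and the change was 4.00 on the log2 scale (SE 0.12, 16.1-fold, adjusted p = 7.9e-08 by limma). Igfbp3, the main IGF carrier of blood, was at 79.5, 70.1, 104 and 105 FPKM in QA mice, against 5.58, 4.86, 5.03 and 5.5 FPKM in vehicle mice. The groups were far apart (log2 change 4.02, SE 0.14, 16.2-fold, adjusted p = 9.2e-08 by limma). Igfbp5 was at 207, 163, 162 and 187 FPKM in QA mice, against 77.5, 85.2, 88.2 and 92.1 FPKM in vehicle mice. All QA mice were higher (log2 change 1.02, SE 0.09, adjusted p = 4.8e-06 by limma). Igfbp7 was at 9.64, 9.55, 9.08 and 12.2 FPKM in QA mice, against 3.36, 4.48, 3.35 and 3.78 FPKM in vehicle mice. Again the groups did not overlap (log2 change 1.37, SE 0.12, adjusted p = 5.5e-06 by limma).

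Igfbp4, which blocks IGFs until it is cleaved by PAPPA, went the other way, at 16.7, 15.6, 13.7 and 14.4 FPKM in QA mice, against 35, 31.7, 33.7 and 35.8 FPKM in vehicle mice. Each QA mouse was far below each vehicle mouse (log2 change -1.21, SE 0.06, adjusted p = 3.8e-07 by limma). Igfbp6 was at 1.43, 2.36, 0.487 and 0.633 FPKM in QA mice, against 2.93, 2.69, 3.27 and 4.18 FPKM in vehicle mice. The QA mice were lower but spread widely (log2 change -1.59, SE 0.39, adjusted p = 0.0045 by limma). Summed over the 6 binding proteins, QA IP held 786 ± 65 FPKM, against 162 ± 4.52 FPKM in vehicle IP (SD, n = 4 each). Igfbp2 made up 62.1% of that sum in QA mice, against 18.3% in vehicle mice. Igfbp5 made up 22.9% in QA mice, against 53% in vehicle mice, and Igfbp4 made up 1.92% in QA mice, against 21.1% in vehicle mice.

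Markers of several cell types moved in QA IP beside these binding proteins. Astrocyte markers were higher for 6 and lower for 2 of 8 genes (summed 7761 to 9465 FPKM, against 5004 to 5485 FPKM in vehicle IP). Oligodendrocyte markers were higher for 6 of 6 genes (summed 2778 to 3916 FPKM in QA IP, against 1422 to 1596 FPKM in vehicle IP), ependymal markers for 6 of 6 (134 to 167 FPKM, against 46.6 to 75.6 FPKM) and endothelial markers for 4 of 5 tested (5.41 to 13.3 FPKM, against 2.49 to 3.27 FPKM). Medium spiny neuron markers were lower for 8 of 8 genes (summed 305 to 452 FPKM in QA IP, against 1965 to 2063 FPKM in vehicle IP) and striatal interneuron markers for 7 of 7 (391 to 500 FPKM, against 1105 to 1251 FPKM). Their part in the changes of the binding proteins was not tested.

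Ligands and receptors moved little in IP. Igf1 was at 0.435, 0.273, 0.297 and 0.302 FPKM in QA mice, against 0.572, 0.581, 0.507 and 0.559 FPKM in vehicle mice. It was lower in each QA mouse (log2 change -0.66, SE 0.17, adjusted p = 0.0053 by limma). Igf2r was at 13.6, 13.4, 13 and 12.9 FPKM in QA mice, against 14.1, 13.9, 14.8 and 15.2 FPKM in vehicle mice (log2 change -0.17, SE 0.04, adjusted p = 0.0064 by limma). Igf1r was at 13.6, 11.5, 10.9 and 11.2 FPKM in QA mice, against 9.76, 9.88, 10 and 10.7 FPKM in vehicle mice. Its rise was small (log2 change 0.18, SE 0.07, adjusted p = 0.037 by limma) and was not called with the replicate number as a block (adjusted p = 0.074) or without QA mouse 1 or any of vehicle mice 1, 2 and 3. With sex as a covariate, the calls of Igf1 (log2 change -0.34, adjusted p = 0.26), Igf2r (-0.15, adjusted p = 0.11) and Igfbp6 (-1.17, adjusted p = 0.15) in IP were lost by limma, so treatment and sex cannot be told apart for them. The QA group held 1 female and the vehicle group no male. For the other genes, too, treatment is separated from sex only through that 1 QA mouse. The Igf2r call was also lost with the spread estimated over all 48 IP libraries (adjusted p = 0.052). Igf2 did not pass in IP (log2 change 0.17, adjusted p = 0.37 by limma).

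**Figure D2:**
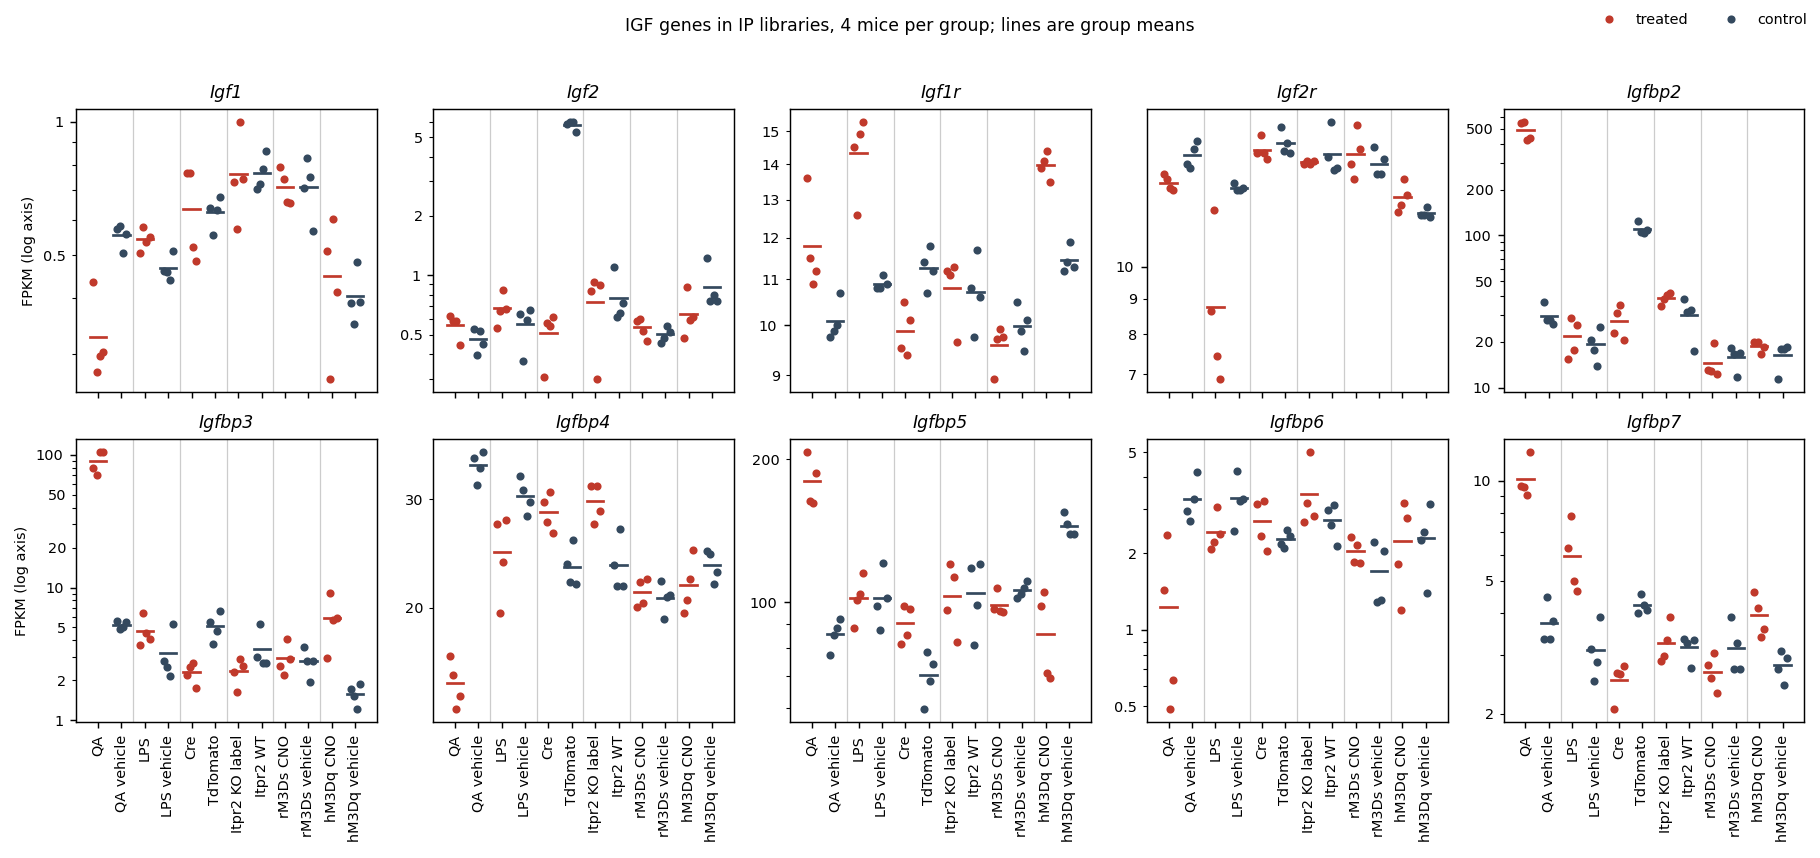
Each panel is 1 gene, the y axis is deposited FPKM in IP on a log axis, each point is a mouse and each line is the mean of 4 mice, with treated groups left of their controls. QA mice stand highest for Igfbp2, Igfbp3, Igfbp5 and Igfbp7 and lowest for Igfbp4, their mean is lowest for Igfbp6, and TdTomato mice stand highest for Igf2.

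In whole tissue after QA, Igf1 joined the genes that rose. Of the 10 genes, 6 were higher and 2 lower in QA input by limma with Benjamini-Hochberg adjustment, where 73.2% of 14831 genes were called, and the members' median log2 change was 0.85, against -0.036 for all genes. In such bulk samples, more cells of a type and more RNA per cell cannot be told apart. Igf1 was at 3.36, 3.43, 3.68 and 3.72 FPKM in QA input, against 0.284, 0.467, 0.372 and 0.394 FPKM in vehicle input. The QA mice were tight and all above any other input group (log2 change 2.83, SE 0.15, 7.1-fold, adjusted p = 1.4e-07 by limma). In QA input, Igf1 met the filter of 0.5 FPKM in 4 libraries only through the QA mice, where it is high. Microglial markers moved with it: 8 of 8 were higher in QA input (median log2 change 2.29), with a summed level of 3741 to 5558 FPKM, against 677 to 813 FPKM in vehicle input. In IP, 8 of 8 were higher too (median 1.89), at a summed 53.8 to 96.1 FPKM in QA mice, against 17.2 to 21.3 FPKM in vehicle mice, and their part in the Igf1 and Igfbp7 values was not tested.

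Igfbp2 was at 124, 124, 104 and 88.8 FPKM in QA input, against 11, 9.63, 11.6 and 9.82 FPKM in vehicle input (log2 change 3.24, SE 0.10, adjusted p = 1.7e-08 by limma). Igfbp3 was at 21, 19.7, 28.4 and 25.9 FPKM in QA input, against 4.66, 4.36, 4.55 and 4.72 FPKM in vehicle input (log2 change 2.21, SE 0.11, adjusted p = 8.9e-08 by limma). Both were clear of their controls in each mouse. Igfbp5 was at 52.6, 39.1, 45.4 and 52.8 FPKM in QA input, against 14.6, 14.2, 15.4 and 16.9 FPKM in vehicle input (log2 change 1.49, SE 0.10, adjusted p = 5.8e-07 by limma). Igfbp7 was at 33.3, 36.7, 58 and 58.1 FPKM in QA input, against 19, 19.8, 20.2 and 14.6 FPKM in vehicle input (log2 change 1.17, SE 0.19, adjusted p = 0.00036 by limma). These groups did not overlap either. Astrocyte markers were higher for 7 of 8 genes in QA input (median log2 change 1.05, summed 2158 to 2749 FPKM, against 965 to 1000 FPKM in vehicle input), and their part in the rises of Igfbp2 and Igfbp5 was not tested. Endothelial markers were higher for 7 of 7 genes in QA input (summed 64 to 79.3 FPKM, against 42.6 to 51 FPKM in vehicle input), and their part in Igfbp7 was not tested.

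Igfbp4 was at 20.6, 21, 21.7 and 18.6 FPKM in QA input, against 25.7, 26, 25.1 and 23.9 FPKM in vehicle input (log2 change -0.42, SE 0.05, adjusted p = 2.5e-05 by limma). Igfbp6 was at 4.25, 4.98, 3.92 and 2.58 FPKM in QA input, against 8.9, 7.17, 8.15 and 8.52 FPKM in vehicle input (log2 change -1.20, SE 0.17, adjusted p = 0.00011 by limma). Both were lower in each QA mouse, and medium spiny neuron markers fell beside them, 8 of 8 lower in input (summed 1567 to 1736 FPKM in QA mice, against 3863 to 3976 FPKM in vehicle mice). Their part in these falls was not tested. Igf2 was at 3.12, 2.45, 5.12 and 3.88 FPKM in QA input, against 2.08, 2.17, 2.22 and 2.35 FPKM in vehicle input. It passed narrowly (log2 change 0.53, SE 0.19, adjusted p = 0.027 by limma) and was not called with sex as a covariate (0.34, adjusted p = 0.36) or without vehicle mouse 1, QA mouse 3 or QA mouse 4. Markers of leptomeningeal and perivascular fibroblasts were higher for 5 of 7 genes in QA input (summed 27.1 to 51.5 FPKM, against 10.7 to 11.4 FPKM in vehicle input), and their part in Igf2 was not tested. The receptors Igf1r (-0.13) and Igf2r (-0.03) did not pass in input.

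The 2 fractions were compared within mice, as the QA effect in IP minus that in input. By limma with Benjamini-Hochberg adjustment 6 of the 10 genes differed, where 46.9% of 15154 genes did. Igfbp3 rose more in IP by 1.87 on the log2 scale (SE 0.06, adjusted p = 1.1e-07), Igfbp2 by 0.82 (SE 0.09, adjusted p = 8.7e-05) and Igf1r by 0.36 (SE 0.07, adjusted p = 0.0024 by limma). Igfbp4 fell more in IP (-0.73, adjusted p = 8.5e-05) and Igfbp5 rose less in IP (-0.41, adjusted p = 0.00063 by limma). Igf1 differed most, with -0.66 in IP, against 2.83 in input (difference -3.43, SE 0.22, adjusted p = 4.3e-06 by limma). In the IGF pathway list of 45 other genes, 12 were higher and 16 lower of 34 tested in QA IP (median -0.19), and 12 were higher and 19 lower of 36 tested in QA input (median -0.16). The PI3K and Akt arm of the list carries the signal of IGF1R inside the cell. This arm had 2 genes higher and 11 lower of 17 in QA IP (median -0.34) and 2 higher and 14 lower of 17 in QA input. Among all genes, 74.0% were called in IP (4911 higher, 5324 lower) and 73.2% in input (5154 higher, 5705 lower). In the list, the largest rises in IP were of Ctsd, a lysosomal protease (log2 change 1.20, adjusted p = 2e-06 by limma), Stat5a, a transcription factor of growth hormone signalling (1.11), and the adaptor Shc1 (0.81). The largest falls were of Stc1, an inhibitor of the IGFBP protease PAPPA (0.205 FPKM in QA mice, against 1.13 FPKM in vehicle mice, log2 change -2.04), the receptor adaptor Grb10 (4.9 FPKM in QA mice, against 15 FPKM in vehicle mice, -1.63) and the kinase Pdpk1 (-1.30). Stc1 met the filter of 0.5 FPKM in 4 libraries only through the vehicle mice, where it is high.

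**Figure D3:**
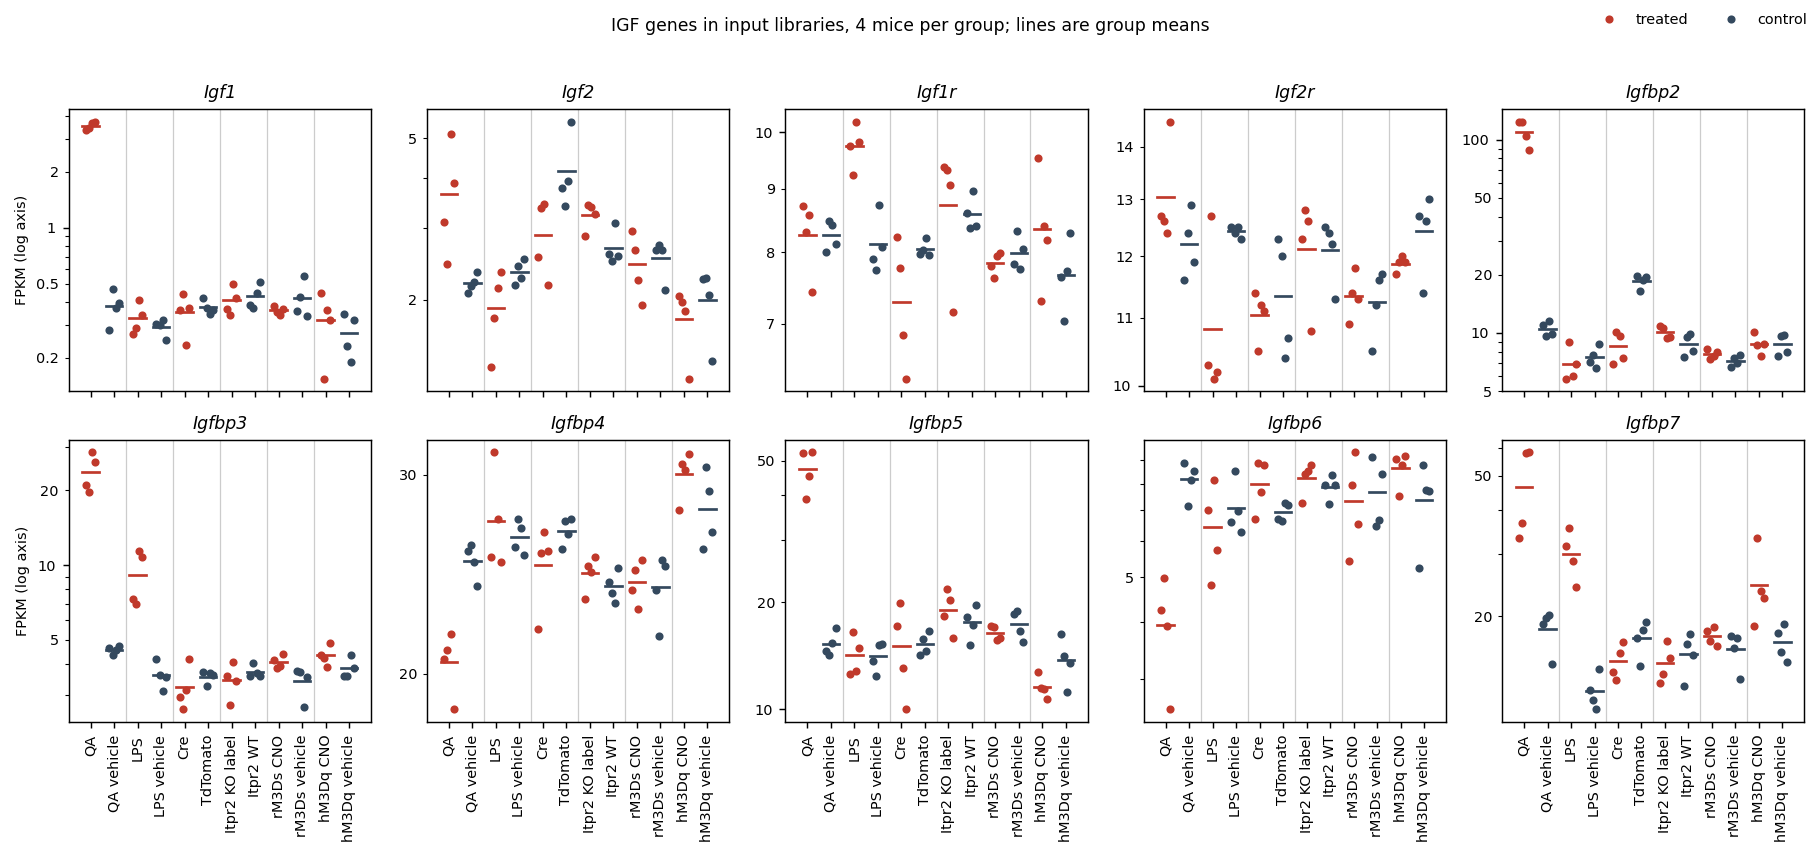
Each panel is 1 gene, the y axis is deposited FPKM in input on a log axis, each point is a mouse and each line is the mean of 4 mice, with treated groups left of their controls. QA mice stand apart for Igf1, Igfbp2, Igfbp3 and Igfbp5, and LPS mice stand second for Igfbp3 and Igfbp7.

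With LPS, Igf1r and Igfbp7 rose in both fractions, Igfbp3 rose in input, Igf2r fell in IP, and Igfbp2 and Igfbp5 did not pass. In IP, 2 of the 10 genes were higher and 1 lower by limma with Benjamini-Hochberg adjustment, where 36.9% of 13641 genes were called, with a median of 0.30 for the members and -0.022 for all genes. In input, 3 of 9 tested genes were higher, where 31.3% of 14511 genes were called, with medians of 0.06 and -0.014. The mice were placed along the difference between the group means (0% for vehicle, 100% for LPS) over the genes called in that fraction. These genes were thus chosen by the same difference. LPS mouse 2 stood apart, at 50.7% in IP and 57.7% in input, where the other 3 LPS mice stood at 111% to 120% over both fractions.

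Igf1r was at 14.5, 12.6, 14.9 and 15.3 FPKM in LPS IP, against 10.8, 10.8, 11.1 and 10.9 FPKM in vehicle IP. Mouse 2 was the lowest LPS mouse and still above the vehicle group (log2 change 0.53, SE 0.10, adjusted p = 0.0088 by limma; 0.64 without mouse 2). In input Igf1r was at 9.74, 9.24, 10.2 and 9.83 FPKM in LPS mice, against 7.9, 7.74, 8.74 and 8.08 FPKM in vehicle mice. This rise (log2 change 0.32, SE 0.08, adjusted p = 0.023 by limma) was lost on leaving out LPS mouse 1, 3 or 4 or vehicle mouse 1, 2 or 4, with adjusted p up to 0.071, and was 0.37 without LPS mouse 2 (adjusted p = 0.00091). Igf2r was at 8.63, 12.1, 7.43 and 6.89 FPKM in LPS IP, against 13.2, 12.9, 12.9 and 13 FPKM in vehicle IP. The vehicle mice were close together, and LPS mouse 2 lay nearest to them (log2 change -0.45, SE 0.12, adjusted p = 0.025 by limma). That call was lost without LPS mouse 3 or 4 or any single vehicle mouse, with adjusted p up to 0.073, and was -0.57 (adjusted p = 0.00036) without LPS mouse 2.

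Igfbp7 was at 6.28, 7.81, 5.01 and 4.68 FPKM in LPS IP, against 3.12, 2.5, 2.86 and 3.91 FPKM in vehicle IP (log2 change 1.05, SE 0.17, adjusted p = 0.0042 by limma). In input it was at 31.5, 35.6, 28.7 and 24.2 FPKM in LPS mice, against 12.4, 11.6, 10.9 and 14.2 FPKM in vehicle mice (log2 change 1.33, SE 0.11, adjusted p = 0.00037 by limma). Neither fraction overlapped its control. Summed endothelial markers were 2.35 to 5.97 FPKM in LPS IP, against 2.45 to 3.24 FPKM in vehicle IP, with 2 of 4 tested genes higher, and 30.7 to 99.7 FPKM in LPS input, against 36.2 to 45.1 FPKM in vehicle input, with 1 of 7 higher and 2 lower. Their part in Igfbp7 was not tested. Igfbp3 was at 7.29, 7.01, 11.4 and 10.8 FPKM in LPS input, against 4.2, 3.62, 3.11 and 3.55 FPKM in vehicle input. All LPS mice were higher (log2 change 1.34, SE 0.19, adjusted p = 0.0025 by limma). In IP its change was 0.73 and did not pass (adjusted p = 0.057 by limma), also without mouse 2 (0.62, adjusted p = 0.076).

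None of the 10 genes differed between IP and input in their LPS response by limma with Benjamini-Hochberg adjustment, where 8.44% of 14908 genes did, although 5 had an unadjusted p under 0.05. That count was 2 with the deposited scaling and 1 with 1 FPKM added before the logarithm in place of 0.1, and it also depended on LPS mouse 2. Without it, 4 genes differed by limma: Igf1r rose more in IP (0.25, adjusted p = 0.012), Igf2r fell more in IP (-0.40, adjusted p = 0.0046), and Igfbp3 (-0.88, adjusted p = 0.036) and Igfbp7 (-0.33, adjusted p = 0.021) rose less in IP than in input. The pathway list had 10 genes higher and 10 lower of 35 tested in LPS IP (median 0.00), and 6 higher and 5 lower of 35 in input (median 0.04), where 36.9% of all genes were called in IP and 31.3% in input. Stat5a (1.60), the insulin receptor substrate Irs2 (46 ± 16.1 FPKM in LPS mice, against 15.8 ± 0.962 FPKM in vehicle mice, SD, n = 4 each, log2 change 1.59, adjusted p = 0.0089 by limma) and the IGFBP protease Htra1 (0.95) had the largest rises in IP. The growth hormone receptor Ghr (-0.96) and Tsc1 (-0.73) had the largest falls.

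Igf2 and Igfbp2 were lower with Cre in Kir4.1flox/flox mice, and their high levels were in the TdTomato group. In IP, 2 of the 10 genes were higher and 5 lower with Cre by limma with Benjamini-Hochberg adjustment, where 29.3% of 13537 genes were called, with a median of -0.07 for the members and 0.005 for all genes. Igf2 was at 0.306, 0.574, 0.553 and 0.615 FPKM in Cre IP, against 5.83, 6.01, 5.98 and 5.31 FPKM in TdTomato IP. The groups were far apart (log2 change -3.27, SE 0.17, adjusted p = 1.5e-06 by limma). Igfbp2 was at 23, 31, 34.7 and 20.7 FPKM in Cre IP, against 125, 105, 103 and 108 FPKM in TdTomato IP (log2 change -2.00, SE 0.14, adjusted p = 1e-05 by limma). For both genes the Cre mice lay within or close to the range of the 20 other control IP libraries, 0.369 to 1.23 FPKM for Igf2 and 11.4 to 38.3 FPKM for Igfbp2, and the TdTomato mice lay above it. Of 13537 genes, 13 (0.096%) had their lowest TdTomato IP library over 2 times the highest of those 20 libraries, and Igf2 and Igfbp2 were 2 of the 13. These levels are those of 1 group in 1 experiment, and the virus, the mouse line and the experiment, by which it differs from the other controls, cannot be told apart.

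Igfbp3 was at 2.21, 2.5, 2.72 and 1.74 FPKM in Cre IP, against 5.53, 3.74, 4.69 and 6.6 FPKM in TdTomato IP (log2 change -1.09, SE 0.17, adjusted p = 0.0014 by limma). Igfbp7 was at 2.06, 2.64, 2.63 and 2.77 FPKM in Cre IP, against 4, 4.57, 4.25 and 4.09 FPKM in TdTomato IP (log2 change -0.69, SE 0.10, adjusted p = 0.00065 by limma). Both were lower in each Cre mouse. Igf1r was at 9.53, 10.5, 9.39 and 10.1 FPKM in Cre IP, against 11.4, 10.7, 11.8 and 11.2 FPKM in TdTomato IP, a small fall (log2 change -0.16, adjusted p = 0.041 by limma) that was lost in 10 alternatives, among them leaving out any of Cre mice 1, 3 and 4 or TdTomato mice 1, 3 and 4, with adjusted p up to 0.16. Igfbp4 was at 29.7, 27.6, 30.8 and 26.5 FPKM in Cre IP, against 23.6, 22, 25.8 and 21.9 FPKM in TdTomato IP (log2 change 0.33, SE 0.06, adjusted p = 0.0027 by limma). Igfbp5 was at 81.6, 98, 85.3 and 96.9 FPKM in Cre IP, against 59.5, 78.4, 68.4 and 74.2 FPKM in TdTomato IP (log2 change 0.40, SE 0.09, adjusted p = 0.0096 by limma). Both were higher in each Cre mouse, so the binding proteins moved in opposite directions. For Igfbp5 the Cre mice lay within the range of the 20 other control IP libraries, 77.5 to 155 FPKM. The TdTomato mice had the lowest Igfbp5 mean of all IP groups (70.1 FPKM). For Igfbp4 both groups lay within the range of those 20 libraries, 19.2 to 35.8 FPKM. Summed microglial markers were 9.78 to 11.6 FPKM in Cre IP, against 13.9 to 17.9 FPKM in TdTomato IP, with 4 of 7 tested genes lower. Oligodendrocyte markers were lower for 6 of 6 genes in Cre IP (summed 751 to 910 FPKM, against 1024 to 1331 FPKM in TdTomato IP), endothelial markers for 2 of 4 tested (2.65 to 3.52 FPKM, against 4.01 to 6.27 FPKM) and mural markers for 3 of 5 tested (18.3 to 22.5 FPKM, against 19.3 to 24.8 FPKM). Medium spiny neuron markers were higher for 8 of 8 genes (1637 to 1687 FPKM in Cre IP, against 1334 to 1409 FPKM in TdTomato IP). Their part in these values was not tested.

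In input, 1 of 9 tested genes was called with Cre by limma with Benjamini-Hochberg adjustment, where 0.346% of 14160 genes were. Igfbp2 was at 6.93, 10.1, 9.65 and 7.4 FPKM in Cre input, against 19.7, 16.5, 18.8 and 19.5 FPKM in TdTomato input. Each Cre mouse was below each TdTomato mouse (log2 change -1.10, SE 0.13, adjusted p = 0.011 by limma), and the call was lost without TdTomato mouse 1, 3 or 4, with adjusted p of up to 0.055. Igf2 was at 2.55, 3.37, 3.44 and 2.18 FPKM in Cre input, against 3.77, 3.4, 3.93 and 5.5 FPKM in TdTomato input. The groups overlapped and it did not pass (log2 change -0.48, adjusted p = 0.45 by limma). The Cre effect differed between fractions for 3 of 10 genes, where it did for 2.35% of 14583 genes. It was more negative in IP for Igf2 (-2.78, SE 0.25, adjusted p = 0.00036 by limma) and Igfbp2 (-0.88, SE 0.09, adjusted p = 0.00055 by limma). Igfbp4 passed narrowly (0.42, adjusted p = 0.049 by limma) and was lost in 9 alternatives, among them both other scalings and leaving out any TdTomato mouse or Cre mouse 1, 2 or 3, with adjusted p up to 0.16. Of the pathway list 3 genes were higher and 3 lower of 33 tested in Cre IP (median 0.08), where 29.3% of all genes were called, and none of 35 passed in input by limma, where 0.346% were. Ctsd was lower (267 FPKM in Cre IP, against 424 FPKM in TdTomato IP, log2 change -0.64, adjusted p = 5.5e-06 by limma), and Irs2 (-0.19), Akt1 (-0.12), Pik3r2 (0.15) and Pdpk1 (0.15) moved by little.

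**Figure D4:**
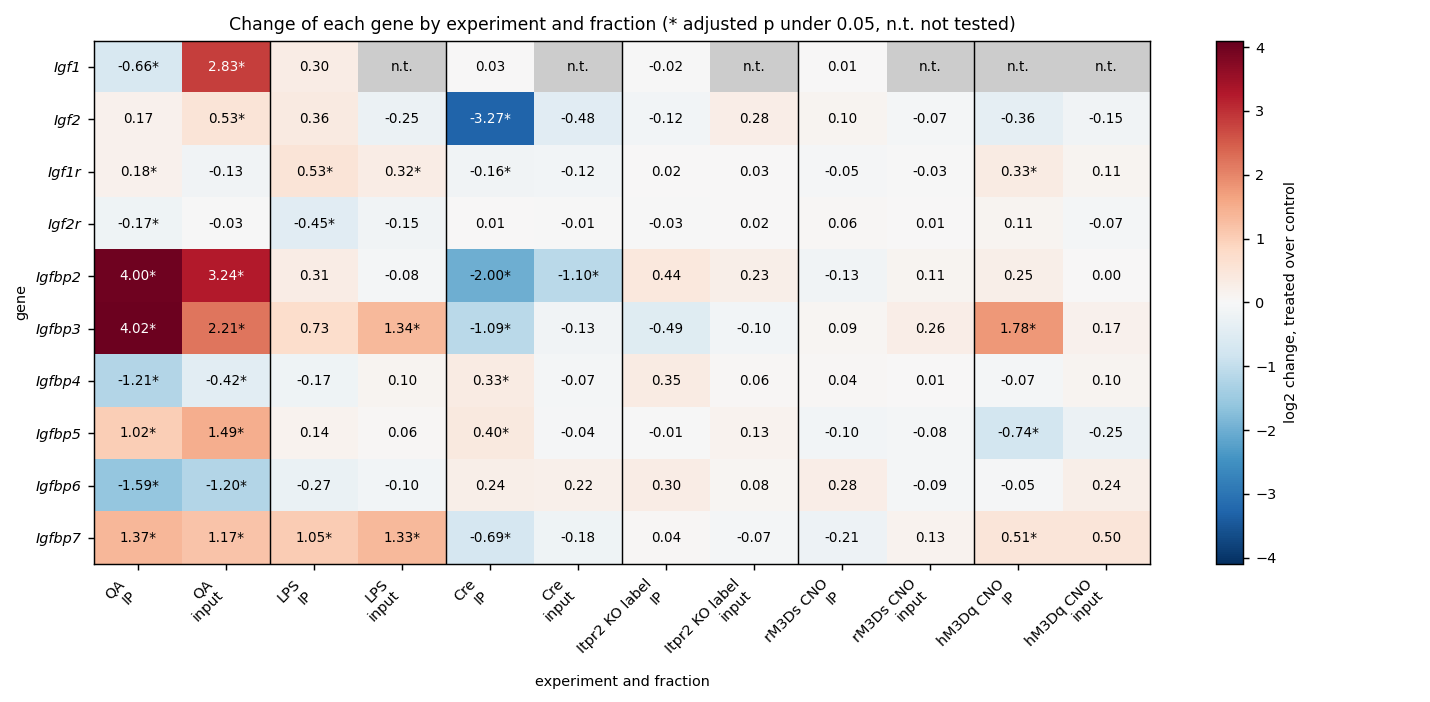
Rows are the 10 genes and columns the IP and input comparisons of the 6 experiments. Colour and number give the log2 change of treated over control, stars mark adjusted p under 0.05 by limma, and n.t. marks genes not tested for low values. The QA columns hold the largest rises, at 4.02 for Igfbp3 and 4.00 for Igfbp2 in IP, and the Cre IP column the largest fall, at -3.27 for Igf2.

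Neither the libraries labelled Itpr2 knockout nor CNO with rM3Ds gave a call among the 10 genes. In the Itpr2 experiment 0 of 10 passed in IP and 0 of 9 in input by limma with Benjamini-Hochberg adjustment, where 0% of 13359 genes were called in IP and 0.00709% of 14099 in input. For the difference between fractions, 0 of 10 passed, where 0% of 14482 genes did. At an unadjusted p under 0.05 there was 1 gene in IP, 2 in input and 2 for the difference, and limma-voom on recovered reads called 0 in either fraction. Igfbp4 was at 31.5, 27.4, 31.5 and 28.7 FPKM in IP labelled knockout, against 23.5, 21.7, 26.9 and 21.7 FPKM in wild-type IP. The groups did not overlap, yet the log2 change of 0.35 (SE 0.09) had an adjusted p of 0.58 by limma over all genes. Igfbp3 averaged 2.35 FPKM in IP labelled knockout and 3.43 FPKM in wild-type IP (log2 change -0.49, SE 0.23), and Igfbp2 averaged 38.8 FPKM in IP labelled knockout and 29.9 FPKM in wild-type IP (0.44, SE 0.20), both with overlap. Log2 changes ran from -0.49 to 0.44 in IP and -0.10 to 0.28 in input. None of the pathway genes tested passed, 32 in IP and 34 in input.

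With rM3Ds, 0 of 10 genes passed in IP and 0 of 9 in input, where 4.58% of 13535 and 0.591% of 14387 genes were called by limma with Benjamini-Hochberg adjustment. For the difference between fractions 0 of 10 passed, where 2.19% of 14763 genes did. No gene of the 10 had an unadjusted p under 0.05 in either fraction, 1 had for the difference, and limma-voom called 0 in either fraction. Changes ran from -0.21 for Igfbp7 to 0.28 for Igfbp6 in IP and from -0.09 to 0.26 in input. Igfbp5 averaged 98.5 FPKM in CNO IP and 106 FPKM in vehicle IP (log2 change -0.10, SE 0.06), and Igfbp3 averaged 2.94 FPKM in CNO IP and 2.77 FPKM in vehicle IP (0.09, SE 0.20). In the pathway list, Irs2 rose to 51 ± 7.89 FPKM in CNO IP, against 15 ± 1.58 FPKM in vehicle IP (SD, n = 4 each, log2 change 1.76, adjusted p = 1.2e-05 by limma), and to 17 FPKM in CNO input, against 11 FPKM in vehicle input (0.61, adjusted p = 0.01 by limma). Of 33 tested genes in IP, Irs2 and Foxo1 (0.40) were higher and Pik3r1 (-0.54) and Irs1 (-0.38) lower. In input, Irs2 alone passed of 35.

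CNO with hM3Dq changed 4 genes in IP: Igfbp3, Igf1r and Igfbp7 rose and Igfbp5 fell. By limma with Benjamini-Hochberg adjustment, 3 of 9 tested genes were higher and 1 lower, where 45.4% of 13563 genes were called, with a median of 0.11 for the members and -0.002 for all genes. Igfbp3 was at 2.97, 9.03, 5.7 and 5.87 FPKM in CNO IP, against 1.73, 1.52, 1.21 and 1.88 FPKM in vehicle IP. The lowest CNO mouse was above all vehicle mice, and the CNO mice spread widely (5.89 ± 2.48 FPKM with CNO and 1.59 ± 0.289 FPKM with vehicle, SD, n = 4 each, log2 change 1.78, SE 0.28, 3.44-fold, adjusted p = 0.00057 by limma). Igfbp5 was at 98.1, 105, 70.9 and 69.4 FPKM in CNO IP, against 155, 146, 139 and 139 FPKM in vehicle IP. All CNO mice were lower (log2 change -0.74, SE 0.15, adjusted p = 0.0025 by limma), and this vehicle group was the highest for Igfbp5 in IP after QA mice. Igf1r was at 13.9, 14.1, 14.4 and 13.5 FPKM in CNO IP, against 11.2, 11.4, 11.9 and 11.3 FPKM in vehicle IP (log2 change 0.33, SE 0.06, adjusted p = 0.0015 by limma). Igfbp7 was at 4.62, 4.15, 3.4 and 3.59 FPKM in CNO IP, against 2.72, 3.09, 2.44 and 2.94 FPKM in vehicle IP (log2 change 0.51, SE 0.13, adjusted p = 0.0096 by limma). Neither overlapped its control. Ependymal markers were lower for 5 of 6 genes in CNO IP (summed 32.5 to 55 FPKM, against 92.1 to 135 FPKM in vehicle IP), astrocyte markers were higher for 1 and lower for 3 of 8 (summed 5342 to 6941 FPKM in CNO IP, against 7538 to 7967 FPKM in vehicle IP), and mural markers higher for 1 and lower for 1 of 4 tested (summed 26.8 to 56.5 FPKM in CNO IP, against 22.9 to 26.6 FPKM in vehicle IP). Their part in these values was not tested.

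In input, 0 of 9 genes passed by limma with Benjamini-Hochberg adjustment, where 3.72% of 14663 genes did, with 2 at an unadjusted p under 0.05 and 0 by limma-voom. Igfbp7 was at 18.7, 33.2, 23.5 and 22.5 FPKM in CNO input, against 17.9, 15.8, 19 and 14.8 FPKM in vehicle input, with overlap (log2 change 0.50, adjusted p = 0.13 by limma). The CNO effect differed between fractions for 2 of 9 genes, where 21.3% of 15142 genes differed. Igfbp3 rose more in IP, with 1.78 there and 0.17 in input (difference 1.59, SE 0.30, adjusted p = 0.0043 by limma). Igfbp5 fell more in IP (difference -0.52, SE 0.13, adjusted p = 0.015 by limma), and this call was lost without the mouse as a block (adjusted p = 0.057), without vehicle mouse 3 (0.051) or without CNO mouse 3 (0.066). In the pathway list 8 genes were higher and 11 lower of 34 tested in IP (median 0.06), and 0 of 36 passed in input by limma. The PI3K and Akt arm had 1 gene higher and 8 lower of 17 in IP, where 45.4% of all genes were called. Pappa, a protease that cleaves Igfbp4 and Igfbp5 proteins, had the largest rise, to 2.37 ± 0.677 FPKM in CNO IP, against 0.177 ± 0.0229 FPKM in vehicle IP (SD, n = 4 each, log2 change 3.14, adjusted p = 4.5e-06 by limma). Pappa met the filter of 0.5 FPKM in 4 libraries only through the CNO mice, where it is high. Stat5a (1.06) and Irs2 (0.92, 26.5 FPKM in CNO IP, against 14.6 FPKM in vehicle IP) rose, and Foxo3 (-0.55), Ghr (-0.51) and Akt2 (-0.45) had the largest falls. The responses with hM3Dq and rM3Ds were measured in separate experiments and their difference was not tested.

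**Figure D5:**
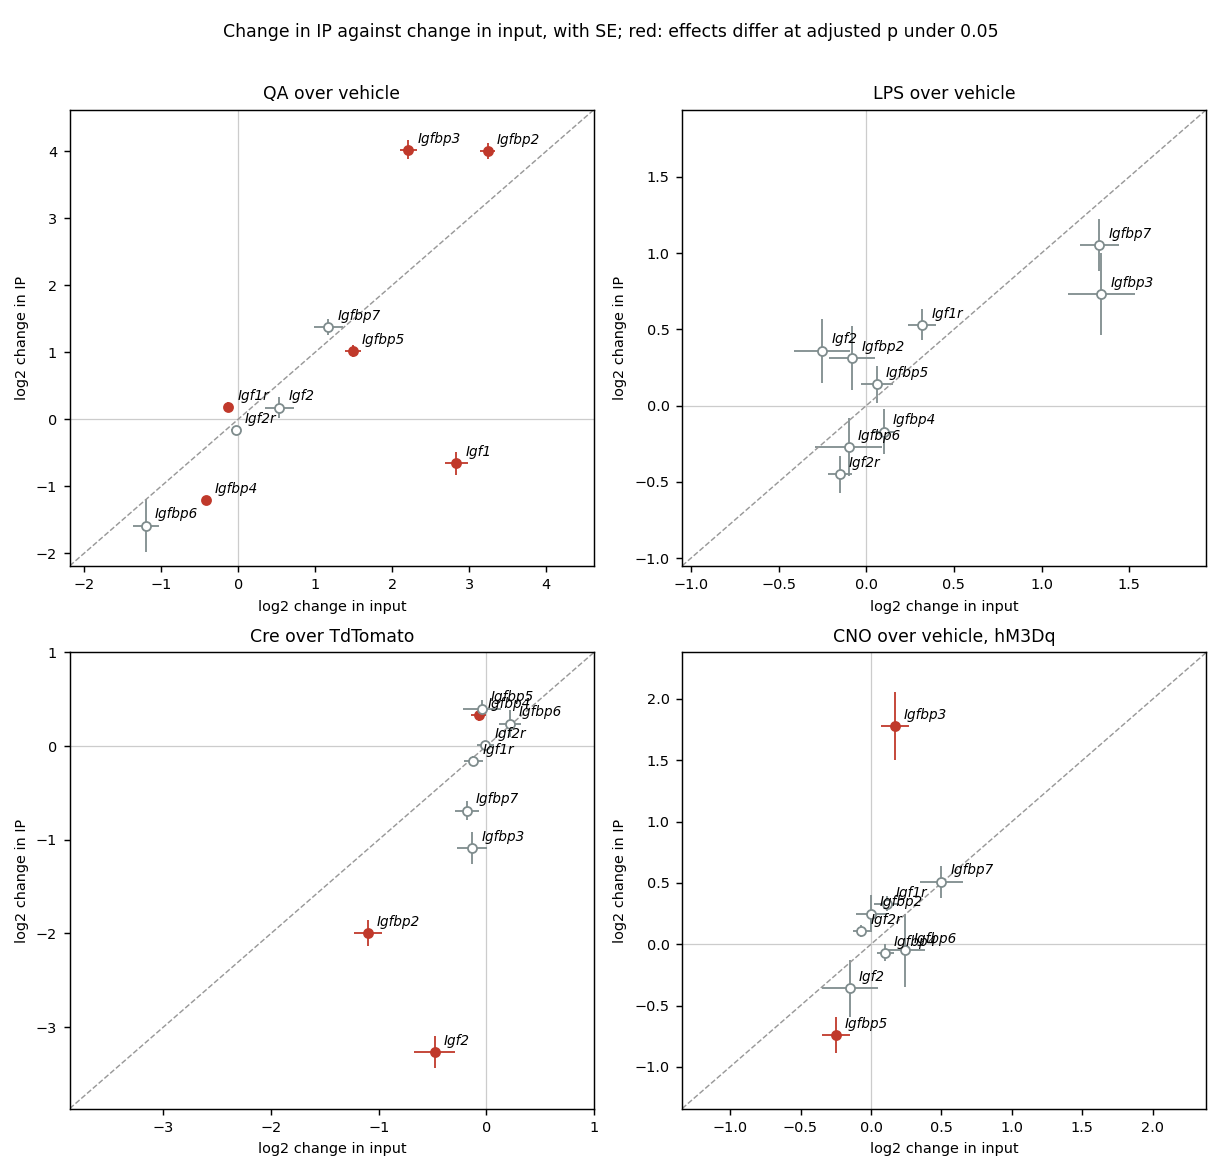
Each point is 1 gene, with the log2 change in input on the x axis, that in IP on the y axis and bars of 1 SE. The dashed line marks equal change, and red points differ between fractions at an adjusted p under 0.05 by limma. Igf1 lies far below the line in the QA panel, Igf2 far below it in the Cre panel and Igfbp3 above it in the QA and hM3Dq panels.

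Ordered over the 12 groups, few neighbouring groups were apart from each other. The QA groups are those where 74.0% of all genes were called in IP and 73.2% in input. Those shares are of calls against vehicle, and the share of all genes with groups clear of overlap was not counted. In IP, QA mice were clear of the next group for Igfbp2 (490 FPKM, against 110 FPKM in TdTomato mice), Igfbp3 (89.8 FPKM, against 5.89 FPKM in CNO mice with hM3Dq), Igfbp5 (180 FPKM, against 145 FPKM in vehicle mice with hM3Dq) and Igfbp7 (10.1 FPKM, against 5.94 FPKM in LPS mice), and QA mice were lowest and clear for Igfbp4 (15.1 FPKM, against 20.8 FPKM in vehicle mice with rM3Ds). In input, QA mice were clear of the next group for Igf1 (3.55 FPKM, against 0.43 FPKM in Itpr2 wild-type mice), Igfbp2 (110 FPKM, against 18.6 FPKM in TdTomato mice), Igfbp3 (23.7 FPKM, against 9.13 FPKM in LPS mice) and Igfbp5 (47.5 FPKM, against 19.1 FPKM in mice labelled Itpr2 knockout). TdTomato mice were highest and clear for Igf2 in IP (5.78 FPKM, against 0.877 FPKM in vehicle mice with hM3Dq). Further down the order, TdTomato mice were clear of the next group for Igfbp2 in both fractions. LPS mice were clear of the next group for Igfbp7 in IP and Igfbp3 in input, and vehicle mice with hM3Dq for Igfbp5 in IP. For Igf1r, Igf2r and Igfbp6, none of the 11 neighbouring pairs of groups was clear of overlap in either fraction. Igfbp7 and Igf1r were called in IP of 4 experiments each, in which 74.0% (QA), 36.9% (LPS), 29.3% (Cre) and 45.4% (hM3Dq) of all genes were called. Igfbp7 had log2 changes of 1.37 with QA, 1.05 with LPS, -0.69 with Cre and 0.51 with CNO and hM3Dq, and Igf1r had 0.18, 0.53, -0.16 and 0.33 in the same order. Antisense neighbours were low: Igf2os reached 0.086 FPKM and Airn, antisense to Igf2r, reached 0.54 FPKM in any library, and whether counting used the strand is not given in the sources used here.

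The genes most like each member were found over the 24 group means. These are Pearson correlations of log2(mean FPKM + 0.1) over 24 groups that share mice, among 12346 genes, given as a description. The groups pool IP and input, so the correlations also carry the differences between fractions, in controls 2.89 for Igfbp5 and -1.34 for Igfbp6. They are not a measure of change with treatment alone. Igfbp5 was most like Ctso and Igdcc4 (r = 0.992 each), Igfbp6 like Jph4 (0.991) and Dlg4 (0.988), which encodes the postsynaptic protein PSD-95, and Igfbp7 like Spi1 (0.988), a transcription factor of microglia and other myeloid cells, Fcer1g and Hcls1 (0.985 each). Igfbp3 was most like Ecm1 (0.951), Igf1r like Tead1 (0.942), Igfbp2 like Akr1c13, Cybrd1 and Lgals1 (0.918 each), Igf2r like Unc13b (0.871), Igf1 like Pkib (0.866), Igfbp4 like Ndrg3 (0.850) and Igf2 like Ndufa4l2 (0.839). Among the members themselves, Igfbp5 and Igfbp6 ran opposite to each other (r = -0.95) and Igf1r and Igfbp5 ran together (0.81).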

How the data were processed

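RNA was measured in IP and input libraries of 48 mice, in 24 groups of 4. The authors deposited FPKM values per gene and library, made with STAR and HTSeq on mm10 per the submitters' processing notes. The labels' protocols name a stranded total RNA kit with removal of ribosomal RNA, while the molecule label says polyA RNA. Reads per gene were recovered from the FPKM steps of each library and came out whole for 100% of values within 0.001 reads. They gave the depth per library and the limma-voom alternative. Values were scaled between libraries by trimmed means (TMM, trimming 30% of log ratios and 5% of levels), set to log2(FPKM + 0.1) and tested with limma (3.58.1, with intensity trend, R 4.3.3) over all genes at 0.5 FPKM or more in 4 or more libraries. The threshold was an adjusted p of 0.05 (Benjamini-Hochberg). Treated and control groups of each experiment were fitted by fraction, and differences between fractions with the mouse as a block. Tables and plots used Python 3.11.15, numpy 2.4.6, pandas 2.3.3 and matplotlib 3.10.9. P-values set each difference, between groups or between fractions within mice, against its spread between mice, as moderated by limma over all genes. Sex was read from Xist and Y-linked genes. The fit was tested on simulated data.

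The members, the pathway list of 45 genes and the cell type marker lists were chosen with earlier results of these data known. All 10 members are named. Of the pathway list, up to 3 rises and 3 falls per IP comparison were named, by size among called genes with a mean of 1 FPKM or more in either group, and 1 gene that met this rule is not reported here. Alternatives changed the scaling, pseudocount, filter, block, covariates and libraries.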

Additional observations from a re-analysis of the deposited data

Results flagged for a closer look

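Of 240 groups of 4 mice examined, 14 held a mouse far from the other 3, where chance flags about 1 in 20 groups. For Igf2 these were 0.298 FPKM in IP of mouse 3 labelled Itpr2 knockout (others at 0.83 or above), 1.23 in IP of vehicle mouse 1 with hM3Dq (others 0.743 to 0.791), 3.09 in input of Itpr2 wild-type mouse 3 (others 2.5 to 2.6) and 2.11 in input of vehicle mouse 4 with rM3Ds (others 2.65 to 2.73). For Igf1r, mouse 4 labelled Itpr2 knockout was low in both fractions, at 9.66 FPKM in IP (others 11.1 to 11.3) and 7.16 in input (others 9.07 to 9.38). For Igf2r, QA mouse 4 was at 14.5 FPKM in input (others 12.4 to 12.7) and LPS mouse 2 at 12.7 in input (others 10.1 to 10.3). For Igfbp2 in IP, QA vehicle mouse 1 was at 36.4 FPKM (others 26.4 to 27.9), CNO mouse 3 with rM3Ds at 19.8 (others 12.3 to 13.1) and vehicle mouse 1 with hM3Dq at 11.4 (others 17.9 to 18.4). In IP, Igfbp3 was at 5.29 FPKM in Itpr2 wild-type mouse 2 (others 2.69 to 3.02), Igfbp5 at 107 in CNO mouse 2 with rM3Ds (others 95.3 to 96.7) and Igfbp7 at 2.75 in Itpr2 wild-type mouse 3 (others 3.26 to 3.35).

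In 11 cases the effect in IP differed from that in input by limma, on the log2 scale. With QA, the IP effect minus the input effect was -3.43 for Igf1, 0.36 for Igf1r, 0.82 for Igfbp2, 1.87 for Igfbp3, -0.73 for Igfbp4 and -0.41 for Igfbp5. With Cre it was -2.78 for Igf2, -0.88 for Igfbp2 and 0.42 for Igfbp4. With CNO and hM3Dq it was 1.59 for Igfbp3 and -0.52 for Igfbp5. For Igf1 with QA the 2 fractions moved in opposite directions, at -0.66 in IP and 2.83 in input. In each fraction Igf1 met the filter only through the group where it was higher.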

How the results depend on the processing

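Of 55 called effects, 42 held their call in every alternative run. Of their 1048 alternative values, 992 held, 53 kept their direction and were no longer called, and 3 reversed. The reversed values were those of control IP against input, for Igf2 within the Kir4.1 experiment (0.67) and for Igfbp4 within the Kir4.1 experiment (-0.01) and with the deposited scaling (-0.01). Members called in LPS IP numbered 5 with limma-voom, against 3. For the difference between fractions with LPS, 0 were called, against 2 with the deposited scaling and 1 with a pseudocount of 1. For input of mice with hM3Dq, 1 was called with the spread of all 48 libraries, against 0, and for the difference between fractions there, 1 without the mouse block, against 2. The cause was not tested. Over all genes, limma-voom called 11 higher and 130 lower in Cre input, against 1 and 48. Leaving out 1 mouse at a time gave 8 to 9 members called in QA IP, 7 to 8 in QA input and 6 for their difference, 2 to 3 in LPS IP, 2 to 4 in LPS input and 0 to 4 for their difference (4 without LPS mouse 2), 6 to 7 in Cre IP, 0 to 1 in Cre input (0 without TdTomato mouse 1, 3 or 4) and 2 to 3 for their difference, 0 throughout with the Itpr2 label, 0 in either fraction and 0 to 1 for their difference with rM3Ds (1 without vehicle mouse 2), 4 in IP, 0 to 1 in input (1 without CNO mouse 1) and 1 to 2 for their difference with hM3Dq, and 9 for control IP against input.

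Replicate numbers in the labels were not stated to pair mice, and in no comparison did every pair of same-numbered mice correlate over 0.1. With the replicate block, members called were 8 in QA IP, 8 in QA input, 3 in LPS IP, 3 in LPS input, 6 in Cre IP, 1 in Cre input, 4 in IP with hM3Dq and 0 in the rest. Over all genes, it gave 28 calls, against 49, in Cre input and 335, against 546, in input with hM3Dq. The deposited scaling gave a share of higher genes among all calls of 58.6%, against 47.5% in the scaled fit, in QA input, 24.0% against 47.4% for the QA difference between fractions, 31.3% against 51.7% in LPS IP, 36.8% against 65.6% for the LPS difference, 31.6% against 45.1% in Cre IP and 35.1% against 48.4% for control IP against input. It set the median of all genes to -0.16 in LPS IP, -0.15 for the QA difference and -0.24 for control IP against input. Low genes limit precision: Igf1 rests on 100 to 404 reads per IP library, and was not tested in input of 5 experiments. With hM3Dq it was also not tested in IP or for the difference between fractions.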

Other observations

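H19, a noncoding RNA that neighbours Igf2 in the mouse genome and is not among the 10 genes, was looked up after the values of Igf2 were seen. It was at 2.15, 3.1, 2.69 and 3.48 FPKM in QA input, against 0.164, 0.0748, 0.14 and 0.198 FPKM in vehicle input, with no overlap. In IP it averaged 0.52 ± 0.133 FPKM in QA mice and 0.0526 ± 0.0196 FPKM in vehicle mice (SD, n = 4 each). In input with hM3Dq it averaged 0.78 ± 0.261 FPKM with CNO and 0.126 ± 0.112 FPKM with vehicle (SD, n = 4 each). These values were not tested.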
